A study of Arabidopsis thaliana with 9 samples.

Results

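The genes described here are 10 nuclear genes for membrane-bound and membrane-associated proteases of the chloroplast: FTSH1, FTSH2, FTSH5, FTSH6, FTSH7, FTSH8, FTSH9, FTSH11, DEG1 and EGY1. They were taken by their locus numbers from a table of 32833 genes, and all 10 were found in it. Poly(A) RNA of whole Arabidopsis thaliana seedlings aged 6 days had been sequenced in 9 libraries, 3 per group. The groups were Col-0, the wild type, the green seedlings of the 2cpab mutant and the albino seedlings of that same mutant. Every group grew on MS with 0.5% sucrose, and the light (125 µE per square metre and second) was continuous. The 2cpab mutant is named for 2CPA and 2CPB, which encode the 2-Cys peroxiredoxins of the chloroplast. Green and albino seedlings carry one genotype label and were told apart by their colour, so a difference between them cannot be assigned to genotype. Whether the 3 libraries of a group stem from separate cultures is not stated, and the p-values rest on their spread alone, which could be technical.

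FtsH proteases are membrane-anchored, ATP-driven zinc metalloproteases. In thylakoids, type A subunits (FTSH1 and FTSH5) and type B subunits (FTSH2 and FTSH8) join in one hexameric complex that degrades photodamaged D1, the reaction-centre protein of photosystem II, and that is needed to build thylakoids. Loss of FTSH2 (VAR2) or FTSH5 (VAR1) gives variegated leaves with white sectors. DEG1 is an ATP-independent serine protease of the thylakoid lumen that acts in the same repair cycle, and EGY1 is a metalloprotease that lies within the membrane and is needed for chloroplast development. FTSH7, FTSH9 and FTSH11 have been assigned to the chloroplast envelope, and FTSH6 is a minor thylakoid form known for degrading the chloroplast small heat-shock protein HSP21 after heat.

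Levels are given as scaled FPKM (fragments per kilobase of transcript, relative to library size and brought by the authors to a common 75th percentile), with the SD over 3 libraries. They are per length, so genes can be compared. Fold changes are differences of log2(level + 1) with their standard error, which understates changes of low genes, and read depth is unknown. RNA of the targeted gene 2CPA lay between 763 and 989 in wild-type, between 35.8 and 267 in green and between 21.4 and 25.4 in albino samples, and 2CPB ran in the same order of groups. In green replicates 1 to 3 2CPA RNA was 35.8, 267 and 256, and 2CPB RNA 7.21, 48.65 and 54.2. Green replicates 2 and 3 thus held far more RNA of both targeted genes than green replicate 1, which limits every comparison with the green group. Fits that use this group were therefore also run with green replicate 1 alone. The summed level of 5 photosynthesis markers was 30159.6 to 38433 in wild-type, 25451 to 41408 in green and 3455 to 4124 in albino samples. Markers of 7 shoot genes summed to 70.9 to 91.3, 91.1 to 114 and 76.8 to 79.8, those of 8 root genes to 62.3 to 112, 61.7 to 69.9 and 91.0 to 105, and those of 7 seed storage genes to 8.08 to 25.7, 63.7 to 92.0 and 55.5 to 166. No marker was at 0 in any library except seed storage genes, with 2 at 0 in wild-type replicate 1 and 1 in wild-type replicate 3. Their part in the results below was not tested, and in whole seedlings fewer green cells and less RNA per cell cannot be told apart.

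In the wild type 3 of the 4 genes of the thylakoid complex, FTSH2, FTSH5 and FTSH1, had the highest levels. Positions are those of the TAIR10.1 annotation. FTSH2 (AT2G30950, chromosome 2 from 13174279 to 13177223) had the highest level, 259 ± 29.3, followed by FTSH5 (AT5G42270, chromosome 5 from 16902475 to 16905294) at 183 ± 24.9 and FTSH1 (AT1G50250, chromosome 1 from 18614201 to 18617155) at 71.5 ± 10.6. DEG1 (AT3G27925, chromosome 3 from 10365652 to 10369013) at 48.3 ± 9.93, FTSH8 (AT1G06430, chromosome 1 from 1960031 to 1963189) at 41.3 ± 5.93 and FTSH11 (AT5G53170, chromosome 5 from 21562718 to 21568023) at 40.0 ± 2.81 came next, below all FTSH1 libraries, and their libraries overlapped with one another. EGY1 (AT5G35220, chromosome 5 from 13484403 to 13487594) at 27.6 ± 3.55 and FTSH9 (AT5G58870, chromosome 5 from 23769786 to 23773973) at 26.4 ± 3.66 lay below all FTSH11 libraries and overlapped with each other. FTSH7 (AT3G47060, chromosome 3 from 17332926 to 17336966) stood at 5.35 ± 0.442 and FTSH6 (AT5G15250, chromosome 5 from 4950359 to 4952803) at 0.204 ± 0.0678. In albino seedlings FTSH2 and FTSH5 still led, at 112 ± 7.004 and 65.8 ± 3.70. FTSH1, FTSH11 and FTSH8 followed within their spread, and DEG1, at 19.0 ± 1.597, ranked below FTSH11 and FTSH8 there and within the spread of EGY1 at 19.3 ± 1.35.

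**Figure D1:**
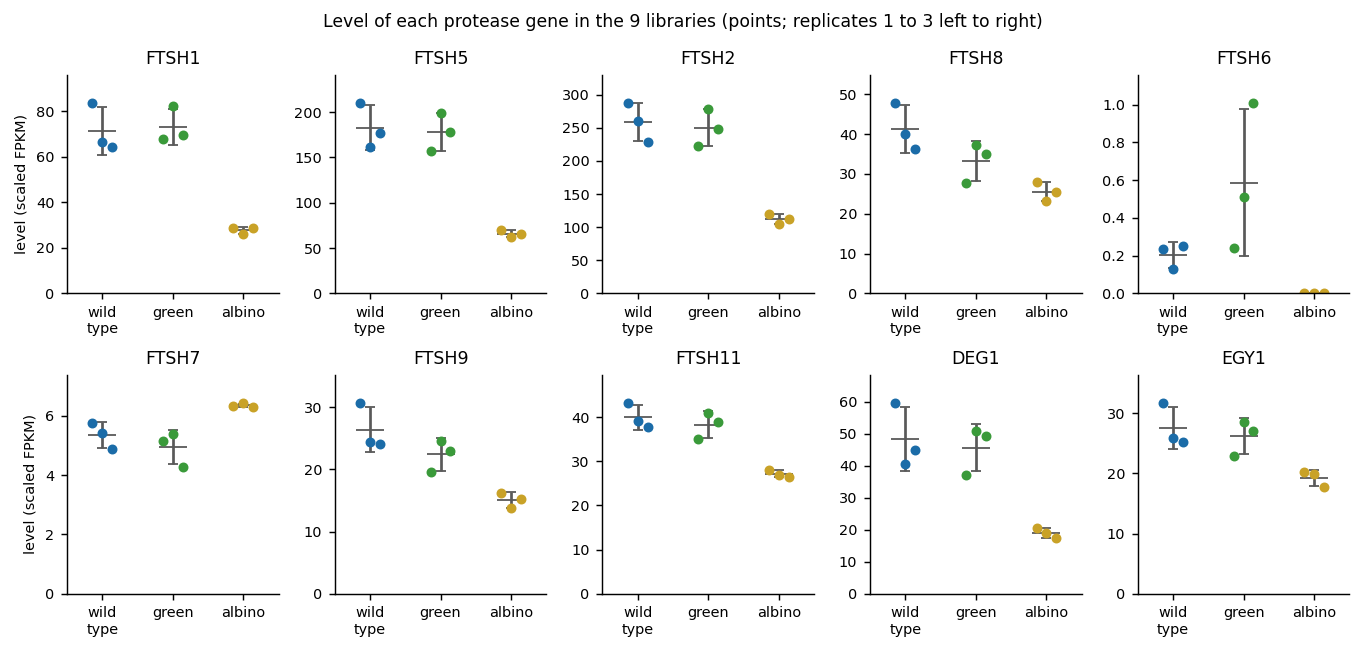
Level of each protease gene in scaled FPKM (vertical axis, from 0) in the 3 libraries of each group (points), with the group mean and SD (bars). Albino libraries lie below all wild-type libraries for 9 genes and above them for FTSH7, while green and wild-type libraries overlap for all 10.

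Levels of close relatives rest on reads being assigned to the right gene. In the TAIR10.1 annotation FTSH1 and FTSH5 encode proteins of 716 and 704 residues with 89.5% identical aligned residues, FTSH2 and FTSH8 proteins of 699 and 685 residues with 91.3%, and FTSH7 and FTSH9 proteins of 802 and 806 residues with 84.6%. Type A and type B are less alike, with 50.4% between FTSH2 and FTSH5, and FTSH6 shared 65.6% with FTSH2 and 50.9% with FTSH5. No stretch of 50 bases was shared between the coding sequences of any of these genes. Only exact matches were sought, so this does not show that reads of close relatives were kept apart. FTSH1, FTSH2, FTSH5, FTSH6 and FTSH7 overlap annotated genes of the opposite strand at their ends. The library kit marks strand, but whether strand was used in quantification is not given in the sources used here.

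None of the protease genes was called changed in green 2cpab seedlings. A gene was tested where its level reached 1 in 3 or more libraries, which 9 of the 10 members did. Of these 9, limma called 0 higher and 0 lower at an adjusted p below 0.05, and 0 had an unadjusted p under 0.05. Among all 19731 genes tested 8.87% were called, 3.71% higher and 5.16% lower. Member values ran from -0.30 to 0.04 with a median of -0.07, against 0.02 over all tested genes. The main subunit, FTSH2, stood at 287, 261 and 229 in wild-type replicates 1 to 3 and at 223, 279 and 249 in green ones. These ranges overlap, and the log2 fold change was -0.05 ± 0.12 (adjusted p = 0.868). FTSH5 was at 209.9, 161 and 177 in wild-type replicates, against 157, 198 and 178 in those of green seedlings, likewise overlapping, with -0.04 ± 0.12 (adjusted p = 0.907). The value farthest from 0 was that of FTSH8, the second type B subunit, at 47.8, 39.9 and 36.1 against 27.7, 37.3 and 35.0, and it did not pass at -0.30 ± 0.14 (adjusted p = 0.239). FTSH9 had -0.23 ± 0.12 (adjusted p = 0.322). A fit with green replicate 1 alone rests on 1 green library, so its calls are not counted here. Over all alternative fits the lowest value was -0.55, that of FTSH8 with green replicate 1 alone. In that fit FTSH9 was at -0.41, DEG1 at -0.35, EGY1 at -0.25, FTSH2 and FTSH5 at -0.21 and FTSH1 at -0.07. Green and wild-type libraries overlapped for all 10 members, and they did not overlap for 23.8% of all tested genes.

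The order of replicates was alike across these genes. Wild-type replicate 1 was the highest of its group for 9 of 10 members and green replicate 1 the lowest of its group for 9 of 10. The same count was not made over all genes, so whether this order is particular to the members is not known. The factor by which the authors scaled each library ran in a like order. It was 1.09, 1.07 and 0.993 in wild-type replicates 1 to 3 and 0.953, 1.12 and 1.03 in green ones. All levels and marker sums carry this factor, and its part in the order was not tested. Green replicate 1 also had the lowest summed photosynthesis markers of the 6 pigmented libraries. Without wild-type replicate 1 the values of FTSH2, FTSH5, DEG1 and EGY1 in green seedlings turned from just below 0 to just above it, and so did those of FTSH2, FTSH5, DEG1, EGY1 and FTSH11 without green replicate 1. None of these values passed.

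Albino seedlings held less RNA of the thylakoid FtsH complex than wild-type seedlings. Of the 9 tested members 8 fell and 0 rose. Among all tested genes 43.5% were called, 20.1% lower and 23.4% higher, so calls in this comparison were common. The albino libraries lay below all wild-type libraries for 9 of the 10 members, FTSH6 included, and above them for FTSH7. Of all tested genes 24.4% lay below in this way and 31.5% above. The members' median was -0.76 and that of all tested genes 0.07. The type A subunit FTSH5 was at 209.9, 161 and 177 in the wild type and at 69.7, 62.4 and 65.4 in albino seedlings. Each albino library lay below each wild-type library, the albino mean was 36.1% of the wild-type mean, and on the log2 scale FTSH5 fell by 1.45 ± 0.12 (adjusted p = 1.82e-05). Its partner FTSH1 went from 83.6, 66.6 and 64.2 to 28.6, 26.0 and 28.7. It too showed no overlap, 38.9% of the wild-type mean, and it fell by 1.32 ± 0.12 (adjusted p = 2.21e-05).

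The type B subunit FTSH2 stood at 119, 105 and 112 in albino seedlings, 43.4% of the wild-type mean with no overlap. It fell by 1.19 ± 0.12 (adjusted p = 4.67e-05). Its partner FTSH8 was at 28.0, 23.2 and 25.4, 61.8% of the wild-type mean. This was the smallest fall of the complex, 0.67 ± 0.14 (adjusted p = 0.00336), and its call was lost with the authors' scaling undone (-0.26, adjusted p = 0.051). The summed level of the 4 subunit genes was 554 ± 65.3 in wild-type, 534 ± 61.1 in green and 232 ± 14.4 in albino samples.

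**Figure D2:**
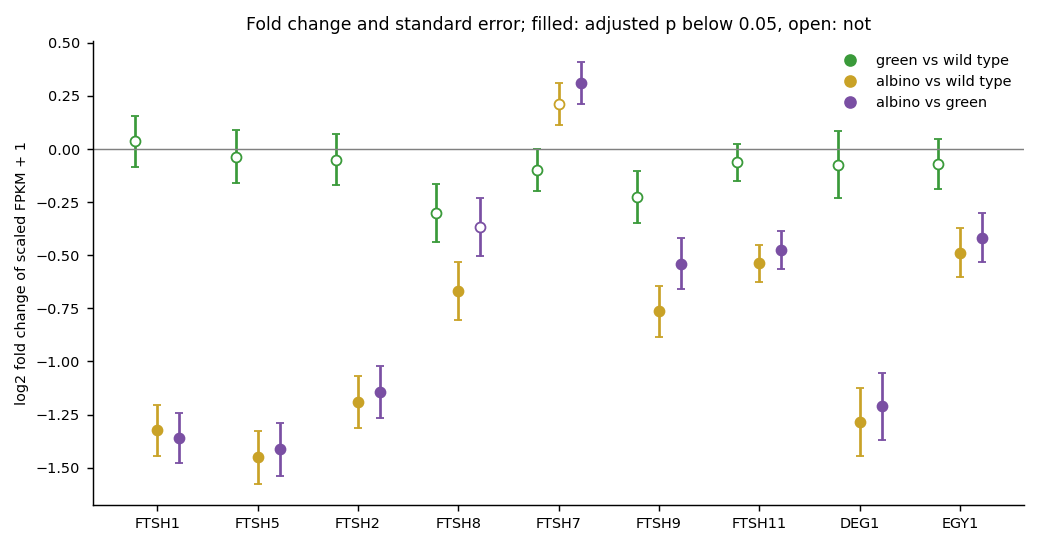
Log2 fold change of scaled FPKM + 1 with its standard error (vertical axis) for the 9 tested genes in the 3 comparisons, filled where the adjusted p was below 0.05. In albino seedlings FTSH1, FTSH5, FTSH2 and DEG1 lie between -1.45 and -1.19, FTSH8, FTSH9, FTSH11 and EGY1 between -0.76 and -0.49, and FTSH7 above 0; no point of the green comparison is filled.

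Ratios within a library do not depend on how the library was scaled. The ratio of type A to type B RNA (FTSH1 plus FTSH5 over FTSH2 plus FTSH8) was 0.875, 0.757 and 0.910 in wild-type replicates, 0.897, 0.888 and 0.871 in green ones and 0.667, 0.687 and 0.683 in albino ones. All albino ratios lay below all others, with means of 0.848 ± 0.0800, 0.885 ± 0.0129 and 0.679 ± 0.0107. The exact two-sided permutation test gave p = 0.1 for albino against either group, the smallest p that 3 against 3 libraries allow, and p = 0.8 for green against the wild type. Within type B, FTSH2 took 85.8, 86.7 and 86.4% in wild-type replicates, 88.9, 88.2 and 87.7% in green ones and 81.0, 82.0 and 81.6% in albino ones. The groups did not overlap, the share of FTSH2 being highest in green and lowest in albino libraries (exact permutation p = 0.1 in each comparison, the smallest possible). Within type A, FTSH5 took 71.9 ± 1.35% in wild-type, 70.8 ± 1.06% in green and 70.3 ± 0.758% in albino samples, and these overlapped (exact permutation p = 0.4 for green and 0.2 for albino against the wild type).

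The other thylakoid proteases also fell in albino seedlings. DEG1, the lumenal serine protease, was at 59.4, 40.4 and 45.01 in wild-type replicates, 37.1, 50.7 and 49.1 in green ones and 20.6, 18.9 and 17.4 in albino ones. Green and wild-type libraries overlapped, and the albino ones lay apart at 39.4% of the wild-type mean. DEG1 fell by 1.29 ± 0.16 (adjusted p = 0.000156) in albino seedlings, and in green ones it had -0.07 ± 0.16 (adjusted p = 0.85). EGY1, the intramembrane metalloprotease, was at 31.7, 25.8 and 25.2 in wild-type replicates, 22.9, 28.6 and 27.1 in green ones and 20.2, 20.0 and 17.7 in albino ones. Its albino libraries also lay below the rest, at 70.0% of the wild-type mean, and it fell by 0.49 ± 0.12 (adjusted p = 0.00718). With the authors' scaling undone DEG1 still passed in limma (-0.88, adjusted p = 0.00035) and EGY1 did not (-0.09, adjusted p = 0.438).

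Of the envelope FtsH genes, FTSH9 and FTSH11 fell and FTSH7 did not pass the test. FTSH9 was at 30.6, 24.4 and 24.2 in the wild type and 16.3, 13.8 and 15.2 in albino seedlings. Its libraries did not overlap and it fell by 0.76 ± 0.12 (adjusted p = 0.000719). FTSH11, which in Arabidopsis is known to be needed for tolerance of high temperature, was at 43.1, 39.2 and 37.7 in wild-type and at 28.1, 27.0 and 26.5 in albino replicates. These did not overlap either, and FTSH11 fell by 0.54 ± 0.09 (adjusted p = 0.000875), a call lost with the authors' scaling undone (-0.13, adjusted p = 0.151). FTSH7, which is 84.6% identical to FTSH9 and has the same number of coding exons, 13, stood at 5.76, 5.41 and 4.89 in wild-type replicates, 5.15, 5.38 and 4.28 in green ones and 6.33, 6.42 and 6.30 in albino ones. All albino libraries lay above all others, and the log2 fold change against the wild type did not pass, at 0.21 ± 0.10 (adjusted p = 0.109). Against green seedlings it passed, at 0.31 ± 0.10 (adjusted p = 0.0331). This call was lost without green replicate 3 (adjusted p = 0.122) and without albino replicate 1 (0.0845), 2 (0.0972) or 3 (0.0736). It was also lost with median-of-ratios scaling (adjusted p = 0.0579). With green replicate 1 alone the value was 0.26.

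The ratio of FTSH7 to FTSH9, chosen after the values were seen and free of library scaling, was 0.188, 0.222 and 0.202 in wild-type replicates, 0.264, 0.219 and 0.186 in green ones and 0.389, 0.466 and 0.414 in albino ones. It was 2.08 times as high in albino as in wild-type seedlings by group means (exact two-sided permutation p = 0.1, the smallest possible). The end of FTSH7 overlaps AT3G47070, a gene of the opposite strand, by 375 bases. AT3G47070 had mean levels of 253, 154 and 37.8 in wild-type, green and albino libraries. It was thus lowest in albino libraries, where FTSH7 was highest, and both means were lower in green than in wild-type libraries. Whether reads of AT3G47070 enter the level of FTSH7 was not tested.

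**Figure D3:**
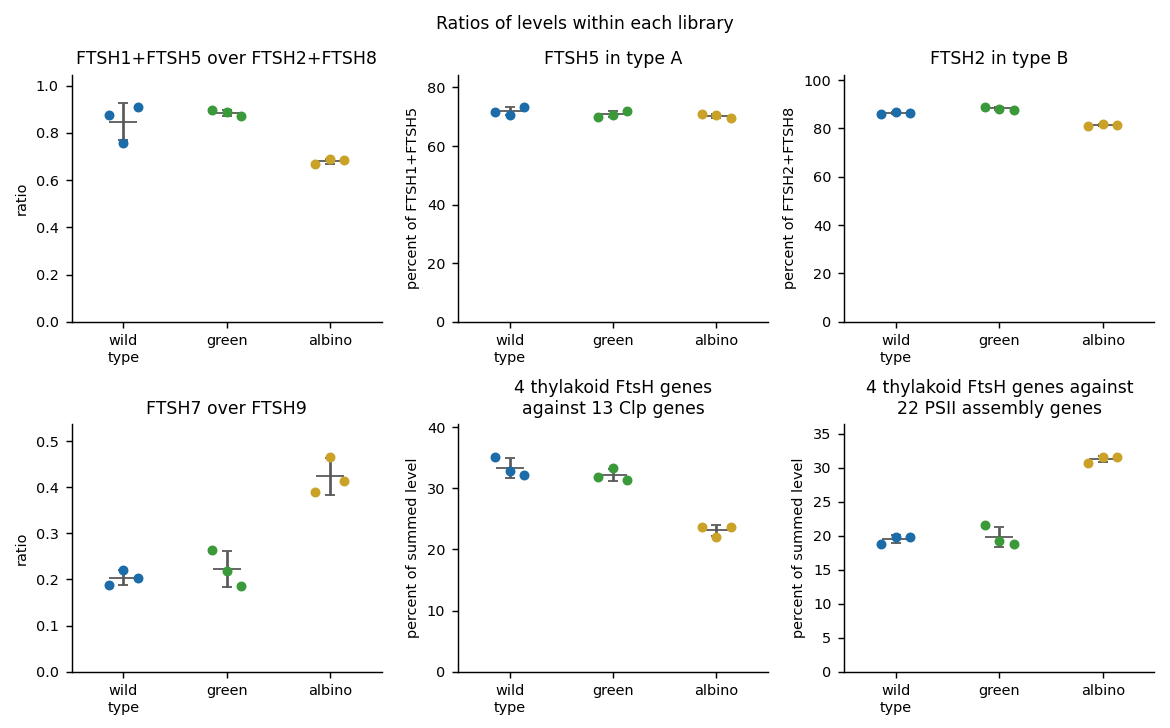
Ratios or percentages of levels within each library (points; vertical axes from 0) with group mean and SD. Albino libraries stand apart in the type A to type B ratio, in the share of FTSH2, in the ratio of FTSH7 to FTSH9 and in the level of the thylakoid FtsH genes against Clp and photosystem II assembly genes, but not in the share of FTSH5.

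The 250 bases before the annotated start of 4 of these genes are shown. FTSH9 was called lower in albino than in wild-type seedlings and its close relative FTSH7 was not. FTSH5 had the largest and EGY1 the smallest fall among the members called. The sequences come from the RefSeq TAIR10.1 genome and run 5′ to 3′ on the strand of the gene. Capitals mark matches on either strand to CACGTG (the G-box), CCAATC or GATAAG (the I-box).
FTSH7, chr3:17332676-17332925, + strand: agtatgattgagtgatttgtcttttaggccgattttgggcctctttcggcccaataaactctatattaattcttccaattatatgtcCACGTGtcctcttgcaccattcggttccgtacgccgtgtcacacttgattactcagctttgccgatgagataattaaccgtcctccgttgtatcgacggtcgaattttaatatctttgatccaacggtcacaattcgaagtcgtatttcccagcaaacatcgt
FTSH9, chr5:23773974-23774223, - strand: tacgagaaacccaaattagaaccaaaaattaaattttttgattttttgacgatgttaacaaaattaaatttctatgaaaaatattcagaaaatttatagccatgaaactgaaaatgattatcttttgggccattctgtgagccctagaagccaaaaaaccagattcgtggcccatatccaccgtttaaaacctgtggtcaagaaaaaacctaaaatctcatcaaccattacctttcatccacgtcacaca
FTSH5, chr5:16902225-16902474, + strand: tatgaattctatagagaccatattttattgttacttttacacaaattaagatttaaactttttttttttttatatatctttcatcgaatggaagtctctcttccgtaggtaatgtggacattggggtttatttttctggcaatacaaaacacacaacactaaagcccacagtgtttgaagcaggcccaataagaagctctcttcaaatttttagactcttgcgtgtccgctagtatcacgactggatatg
EGY1, chr5:13487595-13487844, - strand: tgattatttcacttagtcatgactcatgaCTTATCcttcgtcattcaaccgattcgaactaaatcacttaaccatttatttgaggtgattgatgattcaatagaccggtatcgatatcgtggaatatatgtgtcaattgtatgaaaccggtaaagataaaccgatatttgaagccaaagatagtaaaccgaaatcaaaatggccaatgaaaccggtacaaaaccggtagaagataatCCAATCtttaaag

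Among the windows of all 10 members, CACGTG was found in that of FTSH7 alone, its first base 163 bases before the start, CCAATC in that of EGY1 alone and GATAAG in those of EGY1 and FTSH11. Of 27437 windows of the same length before nuclear protein-coding genes in the table, 6.49% held CACGTG, 10.2% CCAATC and 12.3% GATAAG. The heat-shock element core GAANNTTC, found in 9.55% of all windows, was in none of the 10. The matches in the EGY1 window did not overlap. A match describes letters in this window only.

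FTSH6, the minor thylakoid form, was barely detected and did not pass the filter. It was listed at 0.233, 0.127 and 0.252 in wild-type and 0.239, 0.513 and 1.01 in green replicates, and at 0 in all 3 albino ones. Green replicates 2 and 3 lay above every wild-type library and green replicate 1 lay within the wild-type range. With no counts and a group listed at 0, no fold change is given. FTSH6 overlaps AT5G15240, a gene of the opposite strand, by 87 bases. Mean levels of AT5G15240 were 1.62, 0.999 and 0.635 in wild-type, green and albino libraries, above those of FTSH6 in each group. Whether its reads enter the level of FTSH6 was not tested. RNA of HSP21, which encodes the protein that FTSH6 is known to degrade, was at 0.104, 0.237 and 0.286 in wild-type replicates, 11.6, 34.2 and 40.4 in green ones and 0.313, 0.206 and 1.91 in albino ones. The summed level of 10 heat-shock genes was 175 to 283 in wild-type, 1351 to 3122 in green and 151 to 414 in albino samples, and green replicate 1 was the lowest of its group in both. In albino replicate 3 HSP21 was above the other albino libraries, and FTSH6 was listed at 0 there as well. The part of the heat-shock genes in the levels of FTSH6 was not tested.

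The albino libraries were also compared with the green ones, a comparison that shares them with the one against the wild type. Of the 9 tested members 7 were lower and 1, FTSH7, higher in albino than in green seedlings. Among all tested genes 36.1% were called, 17.7% lower and 18.5% higher. The log2 fold change was -1.41 ± 0.12 (adjusted p = 3.34e-05) for FTSH5, -1.36 ± 0.12 (adjusted p = 3.25e-05) for FTSH1, -1.21 ± 0.16 (adjusted p = 0.000315) for DEG1 and -1.14 ± 0.12 (adjusted p = 9.22e-05) for FTSH2. It was -0.54 ± 0.12 (adjusted p = 0.00671) for FTSH9, -0.48 ± 0.09 (adjusted p = 0.00231) for FTSH11 and -0.42 ± 0.12 (adjusted p = 0.0186) for EGY1. FTSH8 did not pass, at -0.37 ± 0.14 (adjusted p = 0.0621), and 1 of its albino libraries lay above the lowest green one. It passed without green replicate 1 (-0.49, adjusted p = 0.0184), without wild-type replicate 1 (adjusted p = 0.0446) and with median-of-ratios scaling (adjusted p = 0.0483). With the scaling undone the calls of FTSH9 (-0.17, adjusted p = 0.171), FTSH11 (-0.09, adjusted p = 0.299) and EGY1 (-0.04, adjusted p = 0.719) were lost, as they were under TPM and under TPM over nuclear genes. The call of EGY1 was also lost without green replicate 2 (adjusted p = 0.0661) or 3 (0.0624) and without albino replicate 3 (0.0678). With green replicate 1 as the only one of its group, FTSH9, FTSH11 and EGY1 had smaller falls, at -0.36, -0.35 and -0.24, and FTSH7 was at 0.26. That fit rests on 1 green library, so its calls are not counted.

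The size of these falls depended on how the libraries were scaled, and albino libraries had been scaled by a lower factor than the others. The authors' factor, recovered from the values, was 1.05 ± 0.0528 in wild-type, 1.04 ± 0.0848 in green and 0.787 ± 0.00551 in albino samples. When this scaling was undone, the median of all tested genes in albino against wild-type seedlings moved from 0.07 to 0.44, and under TPM to 0.50. Among all genes, 4613 higher and 3968 lower calls became 11777 and 2262 with the scaling undone, and 12664 and 2151 under TPM. For albino against green seedlings 3648 higher and 3483 lower calls became 12290 and 1885 under TPM, where FTSH8 and EGY1 turned to 0.073 and 0.017. FTSH1, FTSH2, FTSH5, FTSH9 and DEG1 were lower in albino than in wild-type seedlings under each of the 4 other scalings run. FTSH8, FTSH11 and EGY1 no longer passed with the scaling undone, at -0.26, -0.13 and -0.09, and FTSH7 then passed as higher at 0.58 (adjusted p = 0.000978). Each scaling multiplies a library by a common factor, so subtracting the median of all tested genes removes the shift by construction and does not test the scaling. Relative to that median, the values moved little. FTSH5 was at -1.52 as scaled by the authors and -1.49 under TPM, EGY1 at -0.56 and -0.54, and FTSH7 at 0.14 and 0.16.

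**Figure D4:**
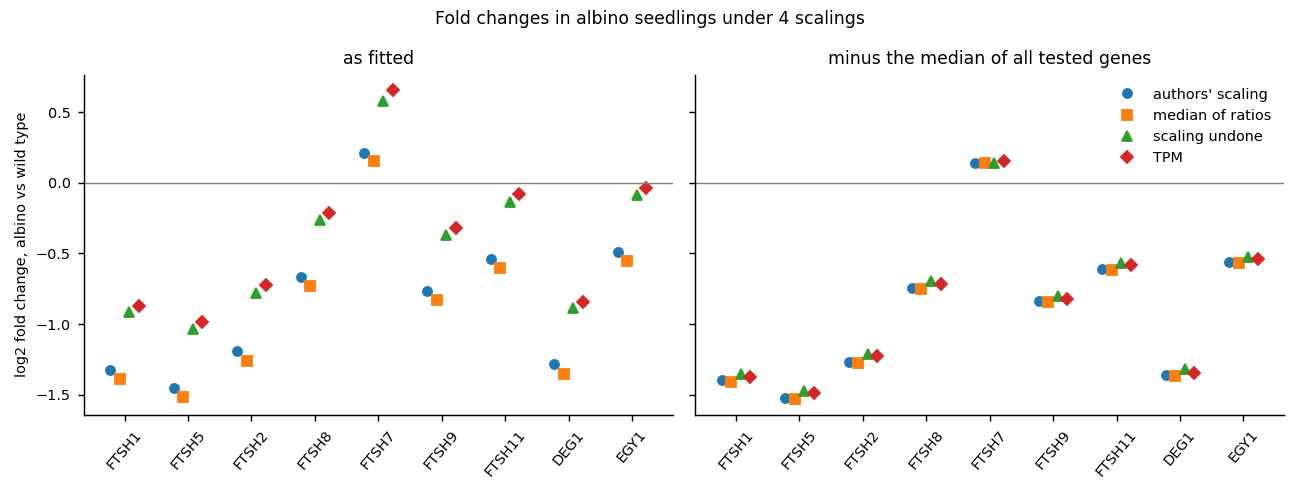
Log2 fold change in albino against wild-type seedlings (vertical axis) of the 9 tested genes under 4 scalings of the libraries, as fitted (left) and after subtracting the median of all tested genes (right). The scalings separate on the left, with EGY1 between -0.55 and -0.04, and fall together on the right, where the order of the genes stays the same. Subtracting the median removes a shift common to all genes, so they fall together by construction.

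Other plastid proteases were also lower in albino than in wild-type seedlings. Among 4 further Deg proteases (DEG2, DEG5, DEG7 and DEG8) 3 fell and 0 rose, with a median of -1.11; DEG5, DEG2 and DEG8 had -1.44, -1.19 and -1.02. Of 13 Clp genes, which form the soluble stromal protease, 11 fell and 0 rose (median -0.68), led by CLPP6 at -1.23, CLPP4 at -1.02 and CLPT2 at -1.02. Of 6 FTSH12 and FtsHi genes, the latter encoding forms thought to lack proteolytic activity, 3 fell and 0 rose (median -0.37): FTSHI5 at -0.49, FTSHI1 at -0.41 and FTSH12 at -0.36. FTSH12 and FTSHI1 turned to 0.090 and 0.027 under TPM. Of 5 further membrane proteases 4 fell and 0 rose (median -0.61), with ARASP at -0.99, EGY2 at -0.84 and AT1G05140 at -0.61. Of 6 tested processing peptidases 5 fell and 0 rose (median -0.64), with CTPA2, which matures the D1 protein, at -0.94, the thylakoid processing peptidase PLSP1 at -0.73 and the stromal processing peptidase SPP at -0.66. With the scaling undone there were 7 lower and 2 higher calls for Clp, 0 lower and 1 higher for the FTSH12 and FtsHi list, 3 lower and 1 higher for Deg, 2 lower and 0 higher for the membrane proteases and 2 lower and 2 higher for the processing peptidases. AT1G05140 and PLSP1 then no longer passed (adjusted p = 0.199 and 0.0905). Of 3 mitochondrial FtsH genes 1 was called higher and 0 lower, FTSH4 at 0.33 (adjusted p = 0.0321), a call lost without any one wild-type or albino library (adjusted p from 0.055 to 0.0873). Of the 10 heat-shock genes 1 was called lower in albino seedlings, HSP101 at -1.40 (adjusted p = 0.0491), and it was lost in 7 of 9 sets that left out a library.

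**Figure D5:**
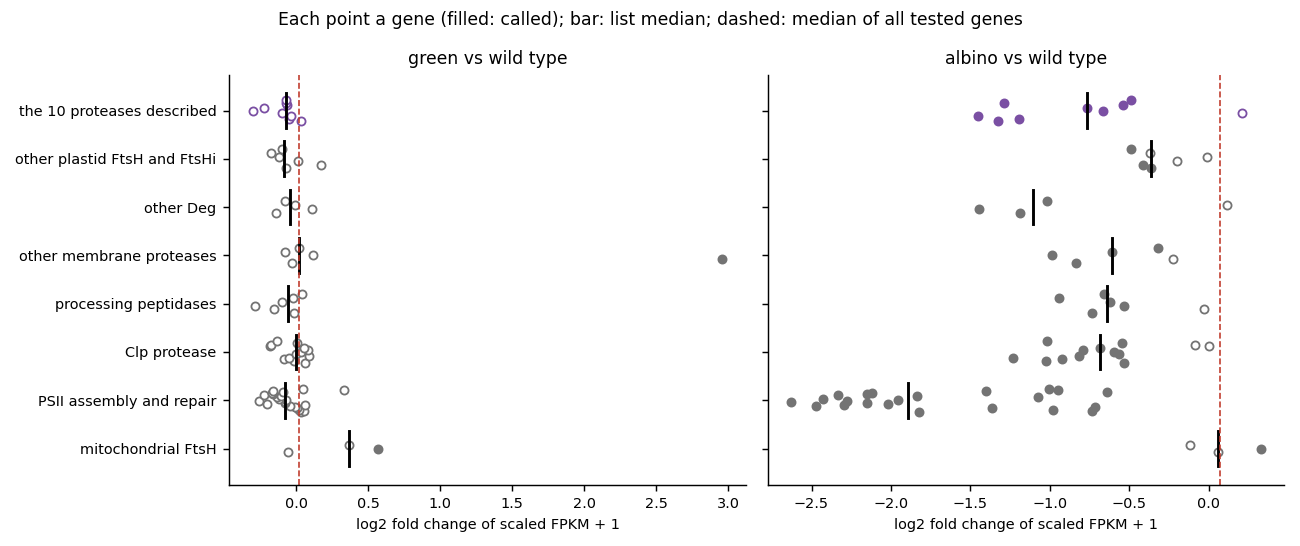
Log2 fold change (horizontal axis) of each gene (points, filled where called) by list, with the list median (bar) and the median of all tested genes (dashed line), for green (left) and albino (right) against wild-type seedlings. In albino seedlings the photosystem II assembly list has the lowest median, -1.90, and the 10 proteases one of -0.76; in green seedlings EGY3 and FTSH4 are the only filled points. The variegation and heat-shock lists are not drawn.

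Genes for the assembly and repair of photosystem II had the lowest median of these lists. All 22 were called lower in albino seedlings, with a median of -1.90; MET1 had -2.63, PSB27 -2.47 and LQY1 -2.43. The summed level of the 4 thylakoid FtsH genes was 18.8, 19.8 and 19.8% of that of these 22 genes in wild-type replicates, 21.5, 19.3 and 18.7% in green ones and 30.7, 31.6 and 31.5% in albino ones, with no overlap between albino and the others. Against the 13 Clp genes the order was the reverse, with 35.2, 32.8 and 32.1% in wild-type replicates, 31.8, 33.3 and 31.4% in green ones and 23.6, 22.1 and 23.7% in albino ones. Both ratios were chosen after the values were seen, and each gave an exact two-sided permutation p of 0.1 for albino against either group, the smallest possible. Of 14 genes for variegation and FtsH partners 10 fell and 0 rose (median -0.77), led by FIP, which binds FTSH5, at -2.21, THF1, whose loss also gives variegated leaves, at -1.48 and SVR8, a plastid ribosomal protein whose loss suppresses FTSH2 variegation, at -1.40. With the scaling undone this list had 8 lower and 3 higher calls, and the photosystem II list 20 lower and 0 higher.

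In green seedlings 4 of 7 seed storage markers were called higher and 1 of 5 photosynthesis markers lower. Of the shoot and root markers 0 of 7 and 0 of 8 were called. The protease, photosystem II and variegation lists gave 3 calls. EGY3, a relative of EGY1 that lacks the zinc-binding motif, rose by 2.96 ± 0.31 (adjusted p = 0.000764). It was at 4.04, 3.42 and 3.96 in wild-type replicates, 20.4, 47.2 and 49.3 in green ones and 2.92, 2.20 and 4.56 in albino ones, so all green libraries lay above the rest and green replicate 1 was the lowest of them, as for the heat-shock genes. The mitochondrial FTSH4 rose by 0.57 ± 0.11 (adjusted p = 0.0109), and with green replicate 1 alone the rise was smaller, at 0.34. EX1, an FTSH2 substrate in singlet oxygen signalling, had -0.38 (adjusted p = 0.0363), a call lost without wild-type replicate 1 (adjusted p = 0.0746) and in each set without a green or an albino library, and with the scaling undone (adjusted p = 0.0778). All 10 heat-shock genes rose in green seedlings (median 3.67), with HSP22, HSP17.6II and HSP17.6A at 5.39, 4.66 and 4.62. With green replicate 1 alone the rise of HSP17.6A was smaller, at 3.82.

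Pearson correlations of log2 values over the 9 libraries describe which genes ran alongside the proteases. The genes share these libraries and their scaling, and the 3 albino libraries stand apart from the 6 pigmented ones. Among the 8 tested members other than FTSH7 the 28 pairs had r from 0.835 to 0.995 over 9 libraries, and from 0.556 to 0.981 over the 6 wild-type and green libraries. FTSH7 had r from -0.753 to -0.455 with those 8 over 9 libraries and from 0.192 to 0.543 over the 6. The tested genes most like FTSH2 were PnsL2 (AT1G14150), PETE1 (AT1G76100), HPR (AT1G68010), GATL6 (AT4G02130) and EMB3126 (AT3G63490), with r from 0.9987 to 0.9991. Those most like DEG1 were AT2G24060, AT2G40400, AT1G64150, AT2G32550 and AT5G42310, with r from 0.995 to 0.999; AT2G24060 is SVR9 of the variegation list. Those most like FTSH6 were NAC2 (AT5G04410), AT5G23480, AT2G41160, AT4G09150 and CRL1 (AT2G33590), with r from 0.964 to 0.975, where 3 of the 9 values of FTSH6 are 0.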

How the data were processed

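Per the labels, RNA of whole seedlings was extracted with a Sure Prep kit and poly(A) libraries were made with a stranded Illumina ligation kit. Per the submitters' processing notes, FastQC, HISAT2 and StringTie were used with the TAIR10 genome; versions and strand settings are not given in the sources used here. The authors deposited log2 values, which the values themselves show to be log2 of FPKM times a library factor plus 1. The factor was recovered from the grid of 6 decimals that FPKM values lie on. The 19731 genes whose level reached 1 in 3 or more libraries were fitted with limma 3.58.1 (R 4.3.3) by group means over 9 libraries with a variance trend, and p-values were Benjamini-Hochberg adjusted over all of them, with calls at 0.05. The code was tested on simulated data. Ratios were compared by exact permutation (scipy 1.17.1). Sequences and positions come from RefSeq TAIR10.1, read with biopython 1.88. The members and gene lists were chosen with earlier results of these data known. Names outside the members are, per list and comparison, up to 3 called genes with the largest change (none for lists with no call), plus 2CPA, 2CPB, HSP21 and genes overlapping or correlating with members. Alternatives changed the pseudocount, filter, scaling, fit, replicate block and libraries. Same-numbered libraries were checked for shared deviations, with r from -0.147 to 0.281, against -0.355 to 0.151 for differently numbered ones. The highest were wild-type with green replicate 2 (0.281) and wild-type with green replicate 3 (0.267). This does not settle whether numbers mark pairs, and they were not taken as pairs in the main fit.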

Additional observations from a re-analysis of the deposited data

How the results depend on the processing

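Across the alternatives 515 values of member fold changes kept their direction and side of the threshold, 28 lost the call, 6 gained it and 18 reversed. In albino against wild-type seedlings 8 lower and 0 higher calls became 5 and 1 with the scaling undone, under TPM and under TPM over nuclear genes. Among all genes tested under these scalings, 2262 of 19932, 2151 of 20999 and 2126 of 21014 were called lower. Those called higher numbered 11777, 12664 and 12771. In albino against green seedlings 7 lower calls became 4 under each of these 3 scalings, where 1999, 1885 and 1882 of all tested genes were called lower. With green replicate 1 as the only one of its group, it is assumed to vary like the other groups, and calls are not counted here. The 1 higher call became 0 with median of ratios, and ranged from 0 to 1 when single libraries were left out. The cause was not tested. With green replicate 1 alone the FTSH2 share of type B differed from the wild type by 2.65 percentage points, and the albino from the green share by -7.40. FTSH8 in albino against green seedlings reversed to 0.014 with the scaling undone, 0.073 under TPM and 0.076 under TPM over nuclear genes, and EGY1 to 0.017 and 0.019 under TPM and TPM over nuclear genes. In green against wild-type seedlings values near 0 changed sign when single libraries were left out: FTSH1 from -0.049 to 0.15, FTSH2 from -0.14 to 0.031, FTSH5 from -0.12 to 0.067, FTSH11 from -0.11 to 0.00047, DEG1 from -0.19 to 0.083 and EGY1 from -0.14 to 0.029. FTSH1 was at -0.066 with green replicate 1 alone. Beyond the members, FTSH12 reversed against the wild type to 0.037 (scaling undone), 0.090 (TPM) and 0.097 (TPM over nuclear genes), and against green to 0.082, 0.14 and 0.14. FTSHI1 reversed against the wild type to 0.027 and 0.034, and FTSHI5 against green to 0.044 and 0.047, under TPM and TPM over nuclear genes. With the replicate block the counts were the same, at 8 lower in albino against wild-type, 7 lower and 1 higher in albino against green, and 0 in green against wild-type seedlings. Replicate numbers were not shown to mark pairs. Read depth is unknown, so FTSH6 is only said to be listed at 0.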
